A study of Mus musculus with 9 samples.

Results

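Chromatin accessibility was followed at genes for membrane transporters, pumps and ion channels in C2C12 myotubes, multinucleate muscle cells that form from a mouse myoblast line when serum is withdrawn. The cultures had been differentiated in horse serum medium and were then kept for 3 h or 24 h in 10 mM ammonium acetate, or were left untreated, with 3 libraries in each group and 9 in all. ATAC-seq was used, a method that reads open chromatin from the sites where a transposase can insert its adapters. Of the 1832 regions that the authors listed in at least 1 of 3 comparisons, 42 carried a symbol of the transport families, and they belonged to 37 of the 1052 gene symbols in the lists. Membership was decided by the start of the gene symbol: Slc, Slco, Abca, Abcb, Abcc, Abcg, Atp1, Atp2, Atp8, Atp10, Atp11, Atp12, Kcn, Cacn, Scn, Trpm, Trpc, Trpv, Ryr, Itpr, Clcn, Ano or Nipa.

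Cells move most small molecules and ions through such proteins: carriers of the solute carrier (Slc) families exchange or cotransport their substrates, pumps spend ATP to work against a gradient, and channels let ions pass down one. The ammonium ion resembles the potassium ion in size and charge and can enter cells through potassium channels, the Na+/K+ pump and cation-chloride cotransporters, while dissolved ammonia also crosses membranes as a gas. Skeletal muscle takes up ammonia and binds it in glutamine, which leaves the fibre through amino acid carriers. Its contraction depends on calcium release from the sarcoplasmic reticulum and on the pumps and exchangers that lower cytosolic calcium again.

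The lists held a fold change and a test per region but no value per library, so the depth and spread of single libraries are not shown here, and the identity of the cells could not be checked against muscle markers. The same untreated libraries served at both times, the labels give no culture time for them, and no group received acetate without ammonium. Exposure, time in culture and acetate therefore cannot be told apart. The p-values come from the authors' edgeR test over 146047 regions, and each error below is an approximate standard error computed from the listed fold change and F statistic. For 3 h and for 24 h against 3 h the lists go down to a raw p of 0.005 at a fold of at least 1.5, whereas the list for 24 h against untreated stops at an adjusted p of 0.05. Coordinates are on mm10 as deposited.

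Accessibility passed the adjusted threshold at 3 transport genes, all after 24 h against untreated myotubes. It rose at 2 of them, among these Nipa1, and fell at 1. Over all 146047 tested regions the same list held 150 regions or 0.103%, 67 higher (0.0459%) and 83 lower (0.0568%), so the transport genes made up 2 of the 67 higher and 1 of the 83 lower regions. How many tested regions lie at transport genes is not known here.

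Nipa1 encodes a magnesium transporter that is mutated in a form of hereditary spastic paraplegia in humans. Its region (chr7:56010122-56011170, 1049 bp, within an intron of 21.8 kb) rose 2.07-fold at 24 h against untreated in the authors' deposited table, with a log2 fold change of 1.05 ± 0.18 and an edgeR adjusted p of 0.0257. The same region had a log2 fold change of 1.08 ± 0.18 at 24 h against 3 h in the authors' deposited table, where it ranked 5 of 1256 by p but did not pass (adjusted p = 0.198 by edgeR). If the 3 comparisons add up, the change left for 3 h against untreated is -0.03 on the log2 scale. That sum held to rounding error in the 3 regions that stand in all 3 lists. Both comparisons contain the 24 h libraries and so are not independent. Of the 37 genes, Nipa1 alone had the same region in more than 1 list.

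**Figure D1:**
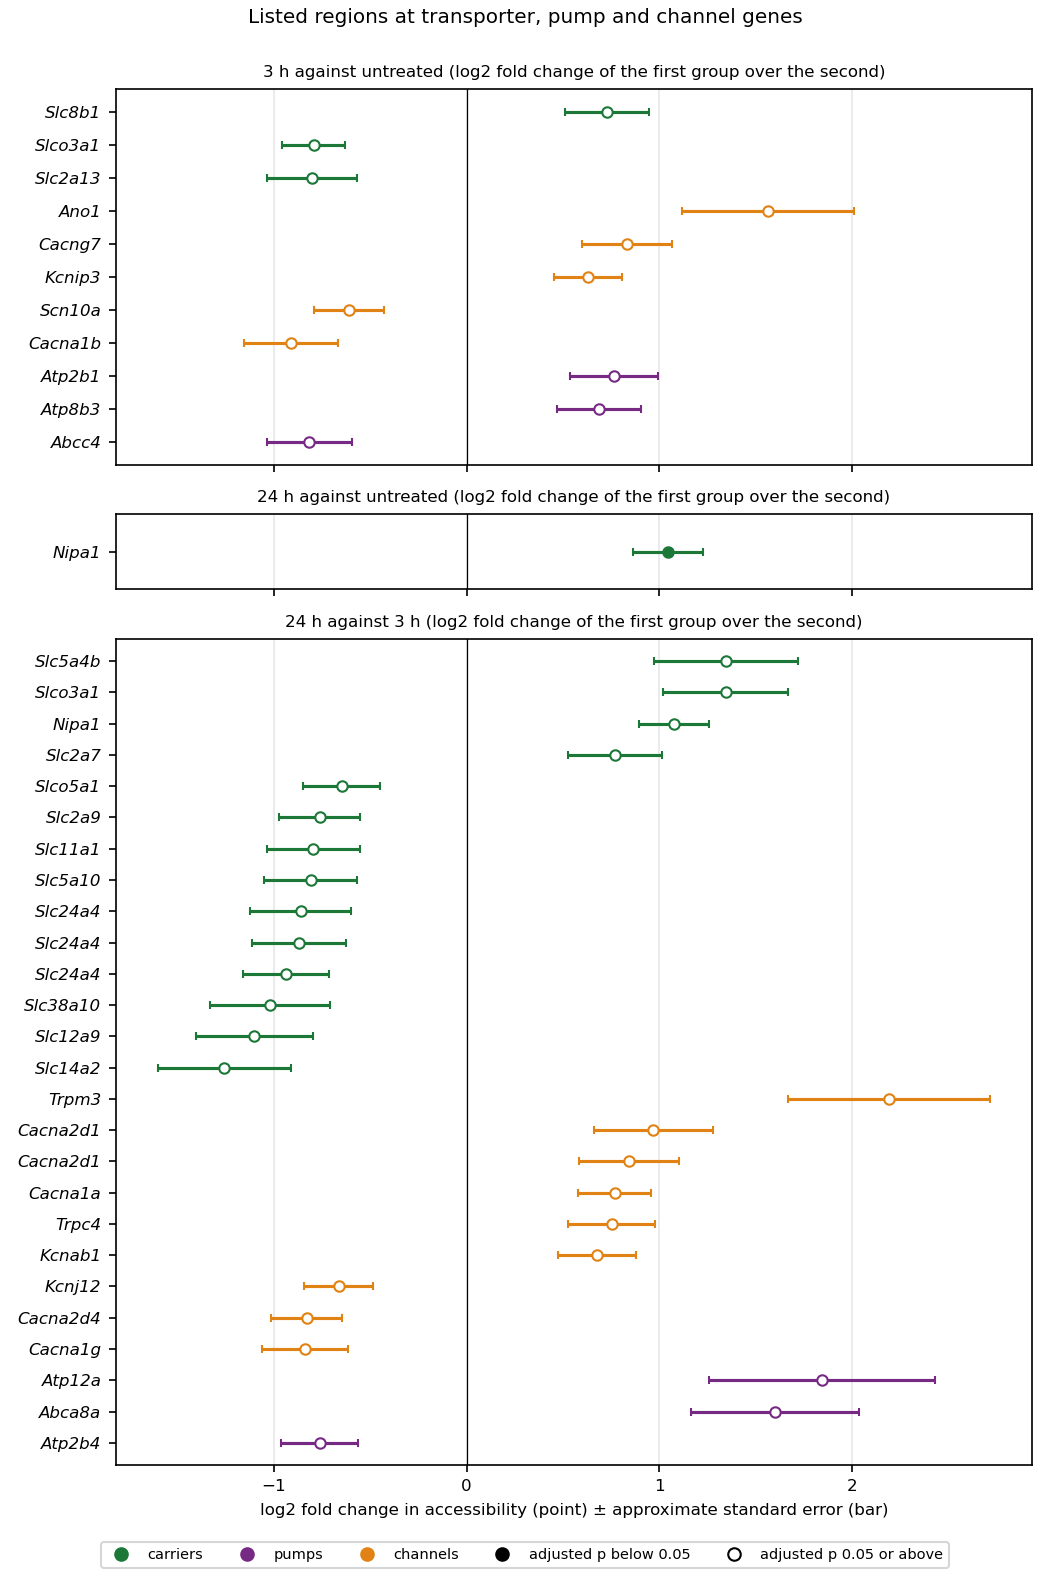
Listed regions at transport genes in each of the 3 comparisons, with the log2 fold change from the authors' deposited table on the x axis (bars, approximate standard error) and 1 row per region, for 38 of the 43 list entries. The filled point, adjusted p below 0.05, is Nipa1 after 24 h against untreated; every other point drawn is open.

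The list for 3 h against untreated held 12 transport regions at 12 genes, 6 higher and 6 lower, among 588 listed regions (0.403% of those tested), of which 327 were higher (0.224%) and 261 lower (0.179%). By edgeR 0 of the 12 passed the adjusted threshold, which 1 region passed over the whole genome (0.000685%). All 12 had a raw p below 0.005, as every region on that list does. The adjusted p of the 12 in the authors' deposited table ran from 0.399 to 0.9999. The list for 24 h against 3 h held 28 transport regions at 25 genes, 12 higher and 16 lower, among 1256 listed regions (0.86%), of which 693 were higher (0.475%) and 563 lower (0.385%). By edgeR 0 of these 28, and 0 of all tested regions (0%), had an adjusted p below 0.05. All 28 had a raw p below 0.005, again as every region on the list does. The values that follow for these comparisons are given as listed and none passed the adjusted threshold. Both comparisons use the 3 h libraries, once above and once below the line, so their values for a gene are not independent.

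Among the carriers, 16 of the 395 protein-coding Slc, Slco and Nipa genes in RefSeq had a listed region. Of protein-coding genes outside the transport families 932 of 21236 (4.39%) were listed, a share that grows with gene length. Neither this count nor those of the families below were matched for length or tested against that share. At 24 h against 3 h, 10 of the 14 carrier regions were lower and 4 higher, and at 3 h against untreated 3 of 4 were lower. Of the 10 lower regions at 24 h against 3 h, 3 lie in Slc24a4 alone, and those at Slc12a9 and Slc5a10 are shared with other genes. Over all listed regions 563 of 1256 were lower at 24 h against 3 h and 261 of 588 at 3 h against untreated. At 24 h against untreated 2 carrier regions were higher and 0 lower, where 67 of all 150 listed regions were higher. Only these 2 carrier regions passed the adjusted threshold.

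Sugar and monocarboxylate carriers had 6 of 43 genes listed (14.0%), against 4.39% of protein-coding genes outside the transport families, without matching for gene length. At 3 h against untreated the authors' deposited table gave a log2 fold change of -0.80 ± 0.23 in an intron of Slc2a13, a proton-coupled myo-inositol carrier. At 24 h against 3 h the authors' deposited table has a log2 fold change of -0.76 ± 0.21 for Slc2a9, a urate carrier, and -0.81 ± 0.24 for Slc5a10, a sodium-coupled sugar cotransporter of the kidney. The Slc5a10 region also lies in Fam83g. Higher regions in the same comparison of the authors' deposited table were 1.35 ± 0.37 in Slc5a4b, of the sodium-glucose cotransporter family, and 0.77 ± 0.24 upstream of Slc2a7, a hexose carrier. The main muscle glucose carriers Slc2a1 and Slc2a4 were not among the listed genes.

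Carriers of calcium and metal ions followed. Slc24a4, a potassium-dependent sodium-calcium exchanger, had 3 regions at 24 h against 3 h, more than any other transport gene. The authors' deposited table gives their log2 fold changes as -0.87 ± 0.24, -0.86 ± 0.26 and -0.94 ± 0.22, at 23.9, 74.5 and 96.6 kb from the gene start (adjusted p from 0.346 to 0.485 by edgeR). All 3 lay in introns (chr12:102152309-102153000, chr12:102202833-102203542 and chr12:102225011-102225555), and they span 73.2 kb of a gene of 138.4 kb. Slc8b1, the sodium-calcium exchanger of the inner mitochondrial membrane, had a log2 fold change of 0.73 ± 0.22 at 3 h against untreated in the authors' deposited table, 2.22 kb upstream of the gene. Slc11a1, a divalent metal carrier of macrophage phagosomes, had one of -0.80 ± 0.24 at 24 h against 3 h in the authors' deposited table.

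Slc38a10, of the family of neutral amino acid carriers that move glutamine, was the 1 listed gene of 64 amino acid carriers (1.56%). Of protein-coding genes outside the transport families 4.39% were listed, from 2.26% of those under 30 kb to 14.8% of those of 100 kb or longer. The comparison is not matched for gene length, rests on 1 listed gene and was not tested. For 24 h against 3 h the authors' deposited table gives Slc38a10 a log2 fold change of -1.02 ± 0.31 (adjusted p = 0.484 by edgeR; chr11:120111082-120111619). Slc14a2, the urea transporter of the renal medulla, had a log2 fold change of -1.26 ± 0.35 in an intron at 24 h against 3 h in the authors' deposited table (adjusted p = 0.421 by edgeR), at a weakly covered region with a mean log2 CPM of 0.77. Slc12a9, of the cation-chloride cotransporter family and described in human cells as a lysosomal ammonium and chloride cotransporter, had one of -1.10 ± 0.30 at 24 h against 3 h in the authors' deposited table (adjusted p = 0.421 by edgeR). That region (chr5:137315601-137315887) also lies at Trip6, so it cannot be given to either gene alone. Slc38a10, Slc14a2 and Slc12a9 belong to different families and were put together here by what they carry. Their shared direction is therefore not a result for a family. The acid-base, chloride and sulfate carriers, among which Slc12a9 was counted, also had 1 region higher at 24 h against untreated.

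Organic anion carriers gave Slco3a1 and Slco5a1. Slco3a1 had the smallest p of the transport genes at 3 h, ranked 27 of 588. For 3 h against untreated the authors' deposited table has a log2 fold change of -0.79 ± 0.16 (adjusted p = 0.399 by edgeR) in an intron (chr7:74444973-74445718). Another region 10.1 kb away in the same intron (chr7:74455847-74456229) had a log2 fold change of 1.35 ± 0.32 at 24 h against 3 h in the authors' deposited table (adjusted p = 0.347 by edgeR). The signs are opposite, but these are different regions in different comparisons. The region at the start of Slco5a1, a CpG island promoter, had a log2 fold change of -0.65 ± 0.20 at 24 h against 3 h in the authors' deposited table. No mitochondrial (47 genes), nucleoside or nucleotide sugar (35), phosphate (14) or lipid and choline (11) carrier had a listed region. Of other protein-coding genes only 4.39% were listed, and 2.26% of those under 30 kb. Families of this size can therefore have none without differing from other genes, which was not tested.

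The pumps had 6 of 77 genes listed, where 4.39% of protein-coding genes outside the transport families were. Both listed calcium pumps, Atp2b1 and Atp2b4, belong to the plasma membrane type that expels calcium from the cell. Atp2b1 had a log2 fold change of 0.77 ± 0.23 at 3 h against untreated, and Atp2b4 one of -0.76 ± 0.20 at 24 h against 3 h, in the authors' deposited table. Atp12a, the non-gastric H+/K+ pump, was the 1 listed gene of 9 Na+/K+ and H+/K+ pump genes, with 1.85 ± 0.59 at 24 h against 3 h in the authors' deposited table. Of 42 ABC transporters, the authors' deposited table listed Abcc4, an exporter of cyclic nucleotides and prostaglandins, with a log2 fold change of -0.82 ± 0.22 at 3 h against untreated. Abca8a, of the lipid-handling ABCA branch, had 1.60 ± 0.44 at 24 h against 3 h in the authors' deposited table. Atp8b3, a phospholipid flippase gene, had 0.69 ± 0.22 at 3 h against untreated in the authors' deposited table. The sarcoplasmic reticulum pumps of the Atp2a type and the catalytic and beta subunits of the Na+/K+ pump were not among the listed genes.

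The channels had 15 of 191 genes listed, 6 of them among the 26 voltage-gated calcium channel genes (23.1%). Of protein-coding genes outside the transport families 4.39% were listed, and 14.8% of those of 100 kb or longer. These counts were not matched for gene length, and no difference was tested. At 24 h against 3 h the auxiliary subunit gene Cacna2d1, part of the L-type channel that senses voltage in skeletal muscle, had 2 intron regions 270.1 kb apart. The authors' deposited table gives their log2 fold changes as 0.84 ± 0.26 and 0.97 ± 0.31 (adjusted p = 0.496 and 0.522 by edgeR; chr5:16045278-16045806 and chr5:16315913-16316393). Cacna1a, the pore subunit of P/Q-type channels, had 0.77 ± 0.19 in the same comparison of the authors' deposited table. Cacna2d4, another auxiliary subunit gene, had -0.83 ± 0.18 in the authors' deposited table, the smallest p among the lower transport regions at 24 h against 3 h (adjusted p = 0.303 by edgeR), at a site that it shares with Lrtm2. Cacna1g, a T-type pore subunit gene, had -0.84 ± 0.22 in that comparison of the authors' deposited table. At 3 h against untreated the authors' deposited table gave 0.83 ± 0.23 at the promoter of Cacng7, of the gamma subunit family, and -0.91 ± 0.24 upstream of Cacna1b, which encodes the N-type pore.

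Of 94 genes whose symbol starts with Kcn 4 were listed (4.26%), where 4.39% of protein-coding genes outside the transport families were. Among them were Kcnj12, Kcnab1 and Kcnip3, whose product binds potassium channels and is described further on. Kcnj12, an inward rectifier of muscle that helps to set the resting potential, had a log2 fold change of -0.66 ± 0.18 at 24 h against 3 h in the authors' deposited table. Kcnab1, a cytoplasmic beta subunit gene, had 0.68 ± 0.20 in that comparison of the authors' deposited table, at a site that also carries A330015K06Rik. Of 18 sodium channel genes 2 were listed (11.1%), among them Scn10a, which encodes a channel of pain-sensing neurons. Neither family count was matched for gene length or tested. The log2 fold change was -0.61 ± 0.18 at 3 h against untreated in an intron of Scn10a in the authors' deposited table.

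TRP and chloride channels completed the channel genes. Trpm3, a heat- and steroid-sensitive cation channel gene, had the highest value of all transport regions, 2.19 ± 0.53 at 24 h against 3 h in the authors' deposited table (adjusted p = 0.346 by edgeR). Trpc4, a receptor-operated cation channel gene, had 0.75 ± 0.22 in that comparison of the authors' deposited table. Ano1, a calcium-activated chloride channel gene, had 1.57 ± 0.45 at 3 h against untreated in the authors' deposited table (adjusted p = 0.990 by edgeR). None of the 11 genes whose symbol starts with Ryr or Itpr, among which are the calcium release channels, had a listed region. The listed share was 4.39% of protein-coding genes outside the transport families and 14.8% of those of 100 kb or longer. A family of 11 genes can therefore have none without differing from other genes, which was not tested.

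Kcnip3, an EF-hand protein that binds potassium channels and also acts as a transcriptional repressor, had the 1 listed region that covers a RefSeq promoter window of a member gene. Its log2 fold change was 0.63 ± 0.18 at 3 h against untreated in the authors' deposited table (adjusted p = 0.979 by edgeR), over 1730 bp (chr2:127481764-127483493) with a mean log2 CPM of 3.95. The gene has 3 RefSeq promoter windows, and the region lies at the internal start, 39.5 kb inside the longest form. The 250 bases before that start (chr2:127482500-127482749, minus strand, GRCm38.p6, from RefSeq) are shown because the listed region contains all of them. Capitals mark the GC box GGGCGG and the CCAAT box CCAAT, which do not overlap.

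Kcnip3 internal promoter: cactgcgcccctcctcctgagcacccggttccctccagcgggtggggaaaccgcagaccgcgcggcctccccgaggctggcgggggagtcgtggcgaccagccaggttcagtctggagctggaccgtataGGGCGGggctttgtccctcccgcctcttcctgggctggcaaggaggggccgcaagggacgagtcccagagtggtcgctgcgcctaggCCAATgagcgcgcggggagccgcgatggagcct

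This stretch is 71.2% G and C, against a median of 52.4% over 32851 RefSeq windows. With both strands searched, GGGCGG occurs in 32.7% of those windows and CCAAT in 33.8%, and each occurs 1 time here. The AP-1 motif TGANTCA, the CRE core TGACGT, the ATF4 element core TGATGCA, the E-box CAGCTG and the TATA box TATAAA have 0 matches here and occur in 6.75%, 6.47%, 2.68%, 13.0% and 12.4% of windows. A match or its lack describes these letters only.

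**Figure D2:**
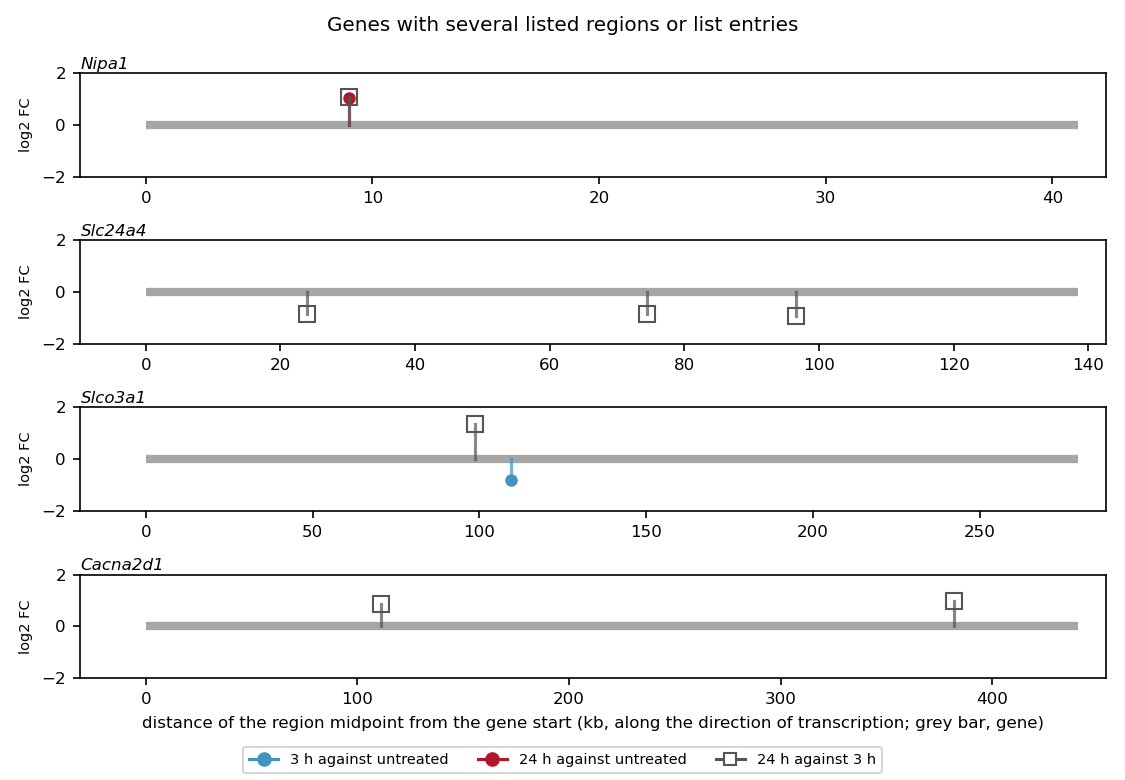
Transport genes with several listed regions or list entries, each drawn from its start along the direction of transcription (grey bar, gene; x axis, kb), with the log2 fold change of each region on the y axis. The 3 regions of Slc24a4 all point down, the 2 of Cacna2d1 up, the 2 of Slco3a1 in opposite directions, and the symbols of Nipa1 coincide because 1 region stands in 2 lists.

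Of the 42 regions, 26 (61.9%) were counted in introns of the member gene, 6 at a promoter, 6 in the sequence 1 to 5 kb upstream and 4 in exons. Each listed region was counted in 1 class only, with promoter before exon, exon before intron and intron before upstream. A region counted at a promoter or in an exon can thus also overlap an intron. Among the 1051 other listed regions with a gene symbol, 59.9% were intronic, 20.3% at promoters, 6.66% upstream and 12.1% in exons. The regions of the transport genes were mostly far from the outermost RefSeq start of their gene, with a median distance of 39.7 kb, and 34 of 42 were over 5 kb away. Even of the 6 promoter regions, 4 (at Kcnip3, Slc11a1, Slc38a10 and Cacna2d4) lay over 5 kb inside the gene by the outermost RefSeq start, where the authors' annotation places a promoter, and 2 (Cacng7 and Slco5a1) near the outermost start. Promoter regions were higher at Cacng7 and Kcnip3, both listed at 3 h against untreated, and lower at the other 4, all listed at 24 h against 3 h. The other listed promoter regions were split the same way, with 68 of 82 higher at 3 h against untreated and 122 of 145 lower at 24 h against 3 h. CpG islands held 7.14% of the transport regions and 8.75% of the others. None of these differences was tested.

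The size of the listed changes went with coverage. At 24 h against 3 h, 7 of the 28 transport regions had a mean log2 CPM below 1, among them those at Trpm3, Atp12a, Abca8a, Slc5a4b, Slc14a2 and Slc12a9, and their absolute log2 fold changes ran from 1.10 to 2.19 with a median of 1.39. The other 21 ran from 0.65 to 1.35 with a median of 0.81. The listed regions without a transport gene had medians of 1.25 below that level and 0.77 at or above it. At 3 h against untreated only Ano1 lay below it. A weakly covered region enters the lists only with a large fold, so the largest values above are also the least precise, with standard errors up to 0.59 at Atp12a. Nipa1, with a log2 fold change of 1.08, had a mean log2 CPM of 3.11.

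**Figure D3:**
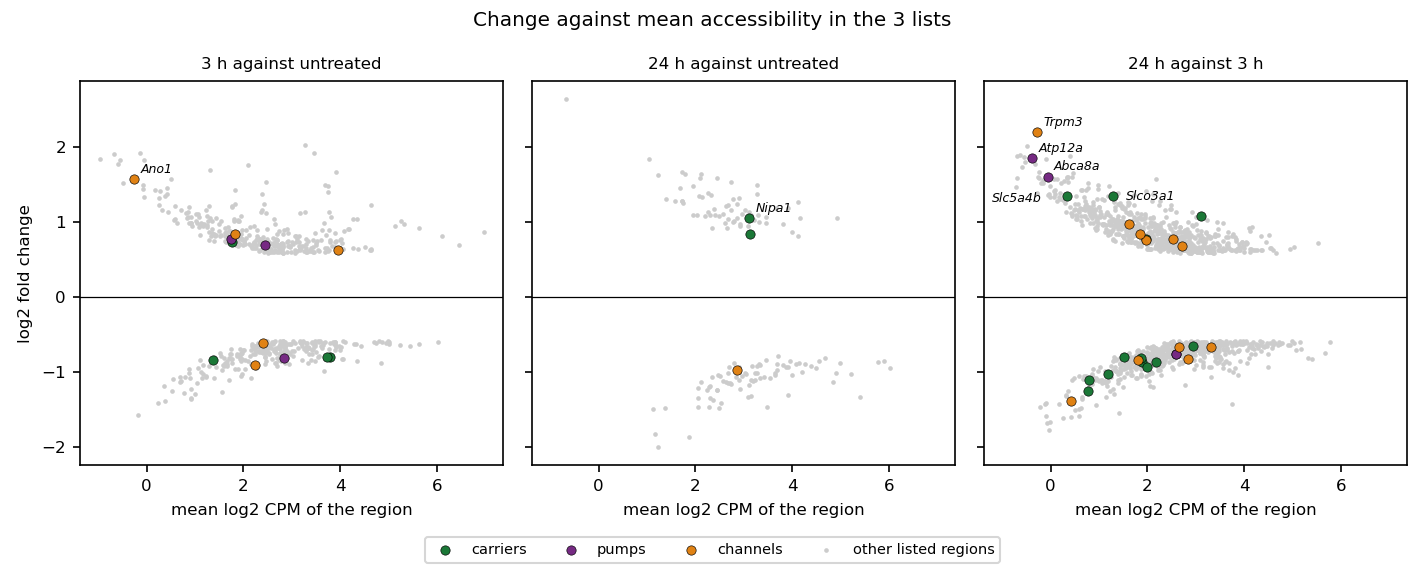
Log2 fold change (y axis) against mean log2 CPM (x axis) for every listed region, from the authors' deposited table, with transport regions coloured by role and other listed regions in grey. Transport regions with values beyond 1.5 (Ano1, Trpm3, Atp12a and Abca8a) all have a mean log2 CPM below 0, whereas Nipa1 lies near 3.

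Transport genes were listed about as often as other genes of their length. By the prefixes, 664 protein-coding genes in RefSeq belong to the group, and 37 of them (5.57%) had at least 1 listed region, against 932 of 21236 other protein-coding genes (4.39%). The transport genes are longer: 19.9% reach 100 kb, against 10.8% of the others. Among genes of 100 kb or longer 13.6% of transport genes and 14.8% of others were listed, among genes of 30 to 100 kb 5.35% and 5.63%, and among shorter genes 2.08% and 2.26%. These shares describe the lists and were not tested.

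**Figure D4:**
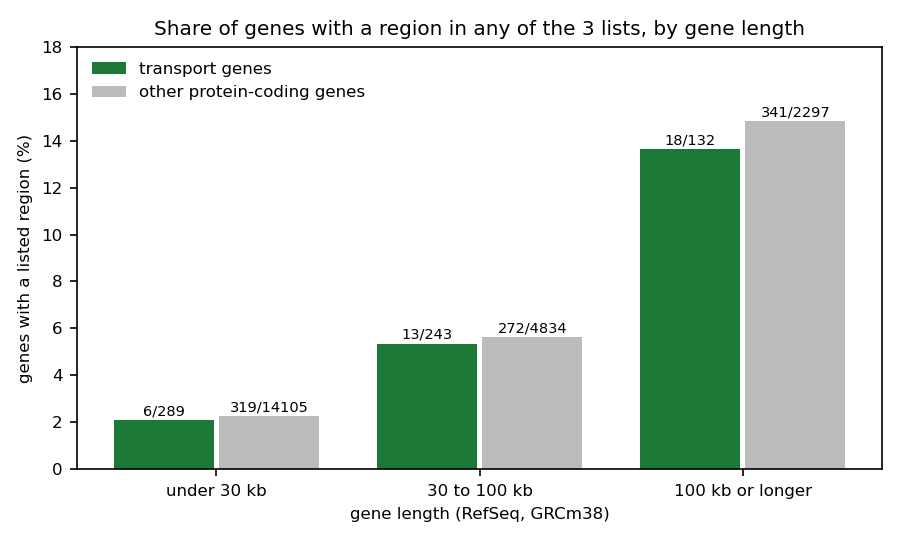
Share of protein-coding genes that have at least 1 listed region (y axis, percent) by gene length (x axis), for transport genes (left bar) and other genes (right bar), with counts above the bars. In each length class the transport genes lie slightly below the others, and both shares grow with length.

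Other genes of membrane transport that the prefixes miss were counted from a list of 120 genes, among them the ammonia-conducting Rh glycoproteins, aquaporins, store-operated and mitochondrial calcium entry, gap junctions, copper and proton pumps, and kinases that regulate ion cotransporters. In all, 5 of the 120 had a listed region, about the share of all protein-coding genes outside the prefixes (4.39%). Of these 5, 2 were higher at 3 h against untreated, 0 were listed at 24 h against untreated, and 1 was higher and 2 lower at 24 h against 3 h. By the authors' edgeR test 0 of the 5 regions had an adjusted p below 0.05. All 5 had a raw p below 0.005, as every region on these lists does. At 3 h against untreated the authors' deposited table has a log2 fold change of 0.83 ± 0.25 at Wnk4, in the promoter of this kinase gene that regulates cation-chloride cotransporters, and 0.60 ± 0.19 upstream of Tpcn2, a lysosomal cation channel gene. At 24 h against 3 h the authors' deposited table gave -0.61 ± 0.17 in Piezo1, a mechanosensitive channel gene, and -0.63 ± 0.18 in Sgk1, a kinase gene that regulates ion transport. For Tmem63a, an osmosensitive channel gene, the authors' deposited table gave 0.62 ± 0.18 at the promoter in that comparison. No Rh glycoprotein gene was listed, which says only that no region at those genes passed the lists' limits.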

How the data were processed

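The libraries were made by Omni-ATAC, per the labels' protocols. Per the submitters' processing notes the tools included Trim Galore 0.4.5, cutadapt 1.15, Bowtie2 2.3.4.1, Picard 2.20.2, MACS2 and edgeR, with build mm10; their settings, any read shift and any pooling before peak calling are not given in the sources used. For each region the authors deposited a log2 fold change, a mean log2 CPM, a p-value with its adjusted value, and an F score. Annotation lines were collapsed to 1 line per region, and a region belongs to every gene whose symbol it carries. The approximate standard error was obtained by dividing the size of the log2 fold change by the root of F. The 146047 tested regions were recovered from the smallest p-value and its adjusted value, with the same result for 3 h and for 24 h against untreated. A check on simulated data used several ranks and not the smallest p-value alone. No test was run beyond the authors' edgeR fit over all regions. Replicates are biological per the labels. All 37 symbols matched the RefSeq table (GRCm38.p6) by gene identifier, and 25 had a promoter window. Gene starts are the outermost RefSeq ends. The members, families, gene list, motifs and alternatives were chosen with earlier results of these data known. By the naming rule any member may be named within its family, with values for those that passed, ranked high, had several regions or lay at a promoter. Values are given for 33 of the 37 genes; the others are counted but not reported here by name. Values were computed with pandas 2.3.3 under Python 3.11.15 and drawn with matplotlib 3.10.9.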

Additional observations from a re-analysis of the deposited data

How the results depend on the processing

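Counts of higher and lower transport regions were recomputed under 6 alternatives, of which adding regions within 5 kb and leaving out regions shared with another gene were chosen after seeing the data. Of 36 recomputed counts, 31 stayed within 1.5 times the reported one. At the common raw p limit of 5.13e-05, the largest raw p listed for 24 h against untreated, the counts became 0 higher and 0 lower at 3 h against untreated, and 1 higher (Nipa1) and 0 lower at 24 h against 3 h. By construction this limit is stricter for both lists and cannot change the counts for 24 h against untreated, which are among the 31. Without the upstream class the 1 lower region at 24 h against untreated was lost and the count was 0. The 5 kb assignment added 1 region, 88 bp from Nipal4, with a log2 fold change of 1.16 at 24 h against 3 h in the authors' deposited table (adjusted p = 0.417 by edgeR). No paired analysis was possible because the files hold no values per library, and for the same reason no replicate could be left out. Depth per library is unknown, and coverage limits the precision of the regions with a mean log2 CPM below 1.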
